A study of Rattus norvegicus with 18 samples.

Results

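The genes described here are 10 genes of blood vessel endothelium, most of them receptors or surface proteins, in the rat colon during colitis. They were chosen by name: Tie1, Tek, Kdr, Flt1, Plvap, Pecam1, Cdh5, Eng, Vwf and Angpt2. A gene was read through the array probe sets that the platform annotation maps to its symbol and to no other. By that rule 9 of the 10 genes were measured, by 12 probe sets, among 14217 genes measured on the array. Cdh5, the adhesion protein of endothelial junctions, had no such probe set and was not analysed here. Flt1 had 3 probe sets and Kdr had 2, and the other genes had 1 each. Unless another is named, a gene's value is that of its probe set with the highest mean over all arrays.

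The colitis model used trinitrobenzene sulfonic acid (TNBS), which binds to proteins of the gut wall and provokes an immune reaction once ethanol has opened the mucosal barrier. The TNBS groups were rats that had received 1 enema of 10 mg TNBS in 50% ethanol, with 3 rats each on days 2, 5, 7 and 14, and the control group was 6 healthy rats given saline. Total RNA of the whole thickness of the colon wall was read on 1 Affymetrix rat expression array per rat. The labels give no strain, sex, age or genotype, and no day of sampling for the controls. Rats were picked for each TNBS day by their inflammatory markers (myeloperoxidase activity, loss of body weight and the weight to length ratio of the colon). No group received ethanol alone, so the part of ethanol cannot be told apart from that of TNBS. The sample entries give Trizol as the extraction of the 12 TNBS samples, but for the 6 controls they cite a manufacturer's manual. The design text describes Trizol and column purification without separating the groups, so a difference in extraction, if there was one, cannot be told apart from TNBS.

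Endothelial cells line all blood vessels. Vascular endothelial growth factors act on them through the receptor tyrosine kinases Kdr (VEGFR2), which carries most of the growth signal, and Flt1 (VEGFR1), which binds the ligand tightly and signals weakly, also as a soluble decoy. Angiopoietins act through the receptor Tek (Tie2), with Tie1 as its partner receptor. Angpt2 is stored and released by endothelial cells and often opposes the stabilising ligand Angpt1. Inflamed bowel is known for new and leaky vessels. RNA of whole tissue was read, so more endothelial cells and more RNA per endothelial cell cannot be told apart in any result below.

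Promoter sequences are shown for the genes that the RefSeq promoter table (build GRCr8) holds, since 4 of them rose together on the arrays and 1, Flt1, gave mixed readings. Each run is the 200 bases before the start site, 5′ to 3′ on the gene's strand. Capitals mark 2 strings on either strand, AGGAAG and the related string CCGGAA, which hold the core letters bound by ETS factors, a family known for its role in endothelial genes.
Tie1, chr5:137304982-137305181, minus strand: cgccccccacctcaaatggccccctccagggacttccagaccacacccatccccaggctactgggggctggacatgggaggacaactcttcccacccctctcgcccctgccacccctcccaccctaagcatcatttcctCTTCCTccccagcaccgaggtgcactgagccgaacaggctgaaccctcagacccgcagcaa
Kdr, chr14:32571863-32572062, plus strand: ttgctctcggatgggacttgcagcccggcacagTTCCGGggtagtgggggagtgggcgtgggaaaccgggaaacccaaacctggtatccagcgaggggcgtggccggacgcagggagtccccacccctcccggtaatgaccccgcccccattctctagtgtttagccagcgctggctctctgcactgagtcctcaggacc
Plvap, chr16:18231280-18231479, minus strand: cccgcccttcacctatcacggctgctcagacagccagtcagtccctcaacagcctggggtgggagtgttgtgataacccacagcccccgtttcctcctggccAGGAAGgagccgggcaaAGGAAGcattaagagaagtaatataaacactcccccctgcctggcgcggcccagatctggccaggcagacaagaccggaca
Eng, chr3:36332079-36332278, plus strand: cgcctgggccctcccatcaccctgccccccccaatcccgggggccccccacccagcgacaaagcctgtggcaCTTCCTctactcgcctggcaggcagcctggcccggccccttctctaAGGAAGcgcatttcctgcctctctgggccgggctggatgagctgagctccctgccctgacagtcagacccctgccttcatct
Flt1, chr12:12333230-12333429, plus strand: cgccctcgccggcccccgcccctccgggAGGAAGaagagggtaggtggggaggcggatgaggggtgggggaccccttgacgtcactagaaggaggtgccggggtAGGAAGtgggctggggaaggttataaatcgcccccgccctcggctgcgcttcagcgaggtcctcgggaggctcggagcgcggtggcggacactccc

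AGGAAG was found in 4 of the 5 windows on either strand, at position -61 from the start of Tie1, -98 and -81 of Plvap, -128 and -82 of Eng, and -172 and -96 of Flt1. CCGGAA was found only in the Kdr window among these 5, at -167 on the reverse strand. Of 27457 promoter windows of the same length, 24.5% hold AGGAAG and 12.1% hold CCGGAA, and a match with either is a description of letters, not of binding. The exact string AGATAA, among those that GATA factors bind, was in none of the 5 windows on either strand, and is in 7.94% of all windows. The exact string ACAAT, among those bound by SOX factors, was also in none of the 5, against 24.6% of all windows. The E-box string CACGTG was in none of the 5 either, against 4.88%. Other forms of the GATA and SOX strings were not searched. The printed Plvap window holds the letters TGATAA, and the printed Eng window holds ACAAAG. A lack of GATA or SOX letters is therefore not read from these windows. No 2 matches overlap in the windows shown. The Flt1 window holds the AGGAAG letters as the Tie1, Plvap and Eng windows do.

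As deposited, the values looked like log2 signals, but the median of an array lay between 4.27 and 4.30 in the controls and between 5.03 and 5.07 in the TNBS arrays. With this offset the median gene read 0.56 to 0.62 higher than control on each TNBS day. For comparisons with control the values were quantile-normalized, which gives all arrays 1 distribution and would also remove a change shared by most genes. The words rose and fell, used against control, mean a limma test with a Benjamini-Hochberg adjusted p under 0.05 over 31042 probe sets on both scales, deposited and quantile-normalized, in 1 direction. Differences between TNBS days use the deposited values. Markers of the labelled tissue were high, with the 8 epithelial markers such as Epcam between the 92.8 and 100 percentiles of probe set means.

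Most of these vessel genes stood above control on days 5 and 7, and none was called higher on days 2 and 14. Of the 9 genes, 7 rose on day 5 (Tie1, Kdr, Plvap, Pecam1, Eng, Vwf and Angpt2), where 14.7% of all genes rose and 1.43% fell. The same 7 rose on day 7, where 14.7% of all genes rose and 1.53% fell. Their median log2 difference from control, over all 9 genes, was 1.40 on day 5 and 1.71 on day 7, beside -0.02 and -0.06 over all genes. On day 2 none of the 9 passed the limma test on both scales, where 11.4% of all genes rose and 0.724% fell, and 3 had an unadjusted p under 0.05. After quantile normalization, Tie1 and Eng of these 3 were higher than control and Flt1 was lower. None passed with limma on day 14, where 6.4% of all genes rose and 0.176% fell, and 1 had an unadjusted p under 0.05. That gene was Flt1, again lower after quantile normalization. The median difference was 0.28 on day 2 and 0.00 on day 14. These 2 days depended on the scale: on the deposited values alone 8 of the 9 genes passed on day 2 and 7 on day 14, with medians of 1.10 and 0.79 beside 0.62 over all genes on both days. The share of all genes that passed on the deposited values alone is not given here. These 2 counts are therefore not read as particular to the 9 genes. All 4 comparisons use the same 6 control arrays. Day 5 arrays did not overlap control arrays for 6 genes on the higher side (14% of all genes) and for Flt1 on the lower side (16.5%), and day 7 arrays did not overlap for 7 genes (14.1%).

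**Figure D1:**
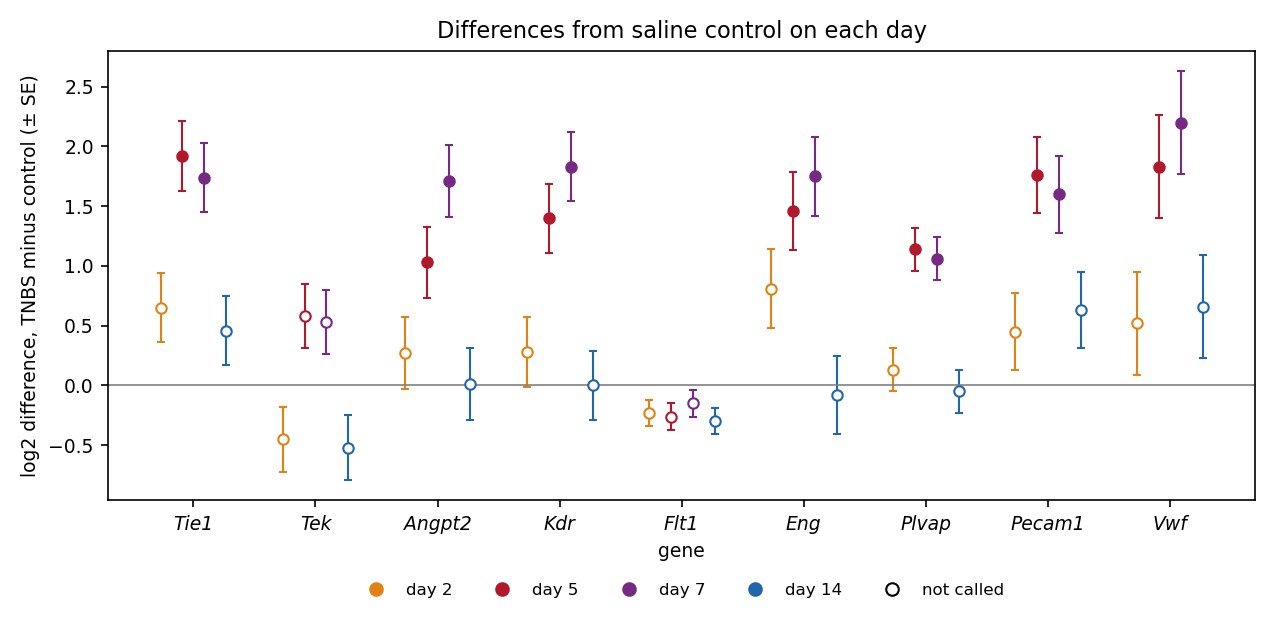
Log2 difference from control of the 9 genes on days 2, 5, 7 and 14 after quantile normalization, with bars of 1 SE from limma (3 TNBS arrays a day, 6 control arrays). Filled points passed the test on both scales: 7 genes on day 5 and the same 7 on day 7, and none on days 2 and 14.

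Tie1, the orphan partner receptor of Tek, rose the most on day 5. It read 4.58 to 5.08 in the 6 controls, with a median of 4.83 (log2, quantile-normalized, as for all levels below). On day 2 the arrays of replicates 1, 2 and 3 read 5.12, 6.01 and 5.32, and on day 5 they read 5.96, 7.45 and 6.85. On day 7 they read 7.22, 6.03 and 6.47, and on day 14 they read 5.42, 5.56 and 4.93. Every array of days 2, 5 and 7 lay above the highest control, which on day 2 held for 10.7% of all genes, and those of day 14 overlapped the controls. The log2 difference was 1.92 ± 0.29 (SE) on day 5, a 3.77-fold higher level (limma, adjusted p = 0.000288), and 1.74 ± 0.29 on day 7 (adjusted p = 0.000479). The day 2 difference of 0.65 ± 0.29 passed on the deposited scale alone (adjusted p = 0.137 after quantile normalization).

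Tek, the receptor of the angiopoietins, did not pass the test on any day. The controls read 6.55 to 7.22 with a median of 6.90. Replicates 1, 2 and 3 read 6.46, 6.74 and 6.15 on day 2, then 6.65, 8.21 and 7.61 on day 5. They read 7.89, 6.92 and 7.52 on day 7 and 6.54, 6.48 and 6.15 on day 14. On days 5 and 7 the arrays of 2 rats each lay above every control and the third lay among the controls, while all 3 arrays of day 14 lay below every control (on this side 10.2% of all genes did not overlap). The log2 differences were -0.45, 0.58, 0.53 and -0.52 on days 2, 5, 7 and 14, each ± 0.27 (limma, adjusted p from 0.129 to 0.266). As deposited, the day 2 and day 14 differences were 0.31 and 0.32, so their direction turned with the scale. Without the first rat of day 5, the Tek difference on that day was 1.00 and passed (adjusted p = 0.00788).

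Angpt2, the angiopoietin released by activated endothelium, rose on both days, and its highest values were on day 7. The controls read 4.00 to 4.58, median 4.12. Day 2 arrays read 4.25, 4.51 and 4.64 for replicates 1 to 3, and day 5 arrays read 4.40, 5.59 and 5.67. Day 7 arrays read 6.58, 4.95 and 6.19, and day 14 arrays read 4.02, 4.29 and 4.31. All day 7 arrays lay above the controls, 1 day 5 array lay among them, and all day 14 arrays lay among them. The difference was 1.03 ± 0.30 on day 5 (limma, adjusted p = 0.0197) and 1.71 ± 0.30 on day 7, a 3.27-fold higher level (adjusted p = 0.000664). The day 5 call was lost without replicate 2 of that day (0.84, adjusted p = 0.112) and without replicate 3 (0.80, adjusted p = 0.113).

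**Figure D2:**
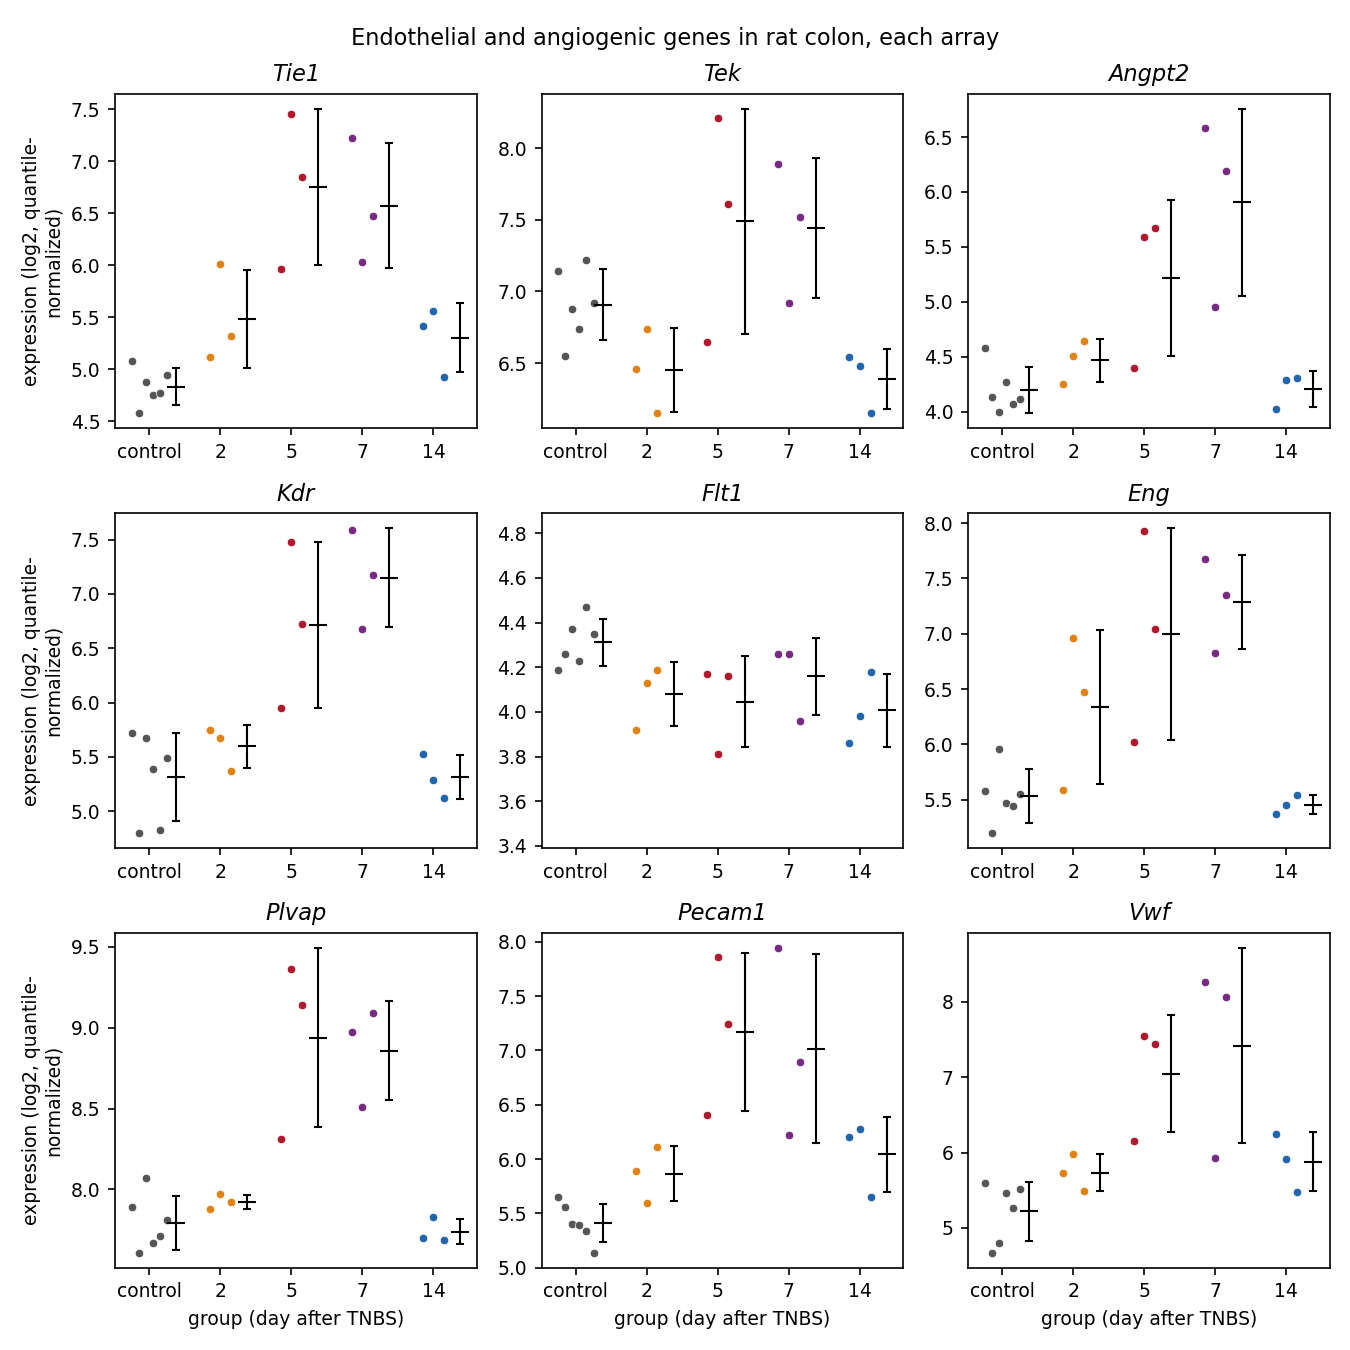
Quantile-normalized log2 expression of the 9 genes, each point 1 array (6 control, 3 for each TNBS day, in order of replicate number), with the mean and SD as a bar beside the points; each panel has its own axis range. Kdr, for example, has 3 day 7 arrays between 6.68 and 7.59 and controls between 4.80 and 5.72, and Flt1 stays within a narrow band.

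Kdr, the main signalling receptor for vascular endothelial growth factor A, rose on days 5 and 7. Its controls read 4.80 to 5.72 with a median of 5.44. Day 2 arrays read 5.75, 5.67 and 5.37, and day 5 arrays read 5.95, 7.48 and 6.72. Day 7 arrays read 7.59, 6.68 and 7.17, and day 14 arrays read 5.53, 5.29 and 5.12. All arrays of days 5 and 7 lay above every control, and all of day 14 lay among the controls. The difference was 1.40 ± 0.29 on day 5 (limma, adjusted p = 0.00231) and 1.83 ± 0.29 on day 7, a 3.56-fold higher level (adjusted p = 0.000277), against 0.00 ± 0.29 on day 14. The other Kdr probe set, whose mean lay at the 10.7 percentile of probe sets, read 3.13 to 3.53 over all 18 arrays and did not pass on any day.

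Flt1 gave no single answer, because its 3 probe sets disagreed. The brightest, whose mean lay at the 36.9 percentile of probe sets, read 4.19 to 4.47 in controls (median 4.30) and 3.92, 4.13 and 4.19 on day 2. Day 5 arrays read 4.17, 3.81 and 4.16, day 7 arrays 4.26, 4.26 and 3.96, and day 14 arrays 3.86, 3.98 and 4.18. All arrays of days 5 and 14 lay under the lowest control, and those of days 2 and 7 overlapped the controls. Its differences on days 2, 5, 7 and 14 were -0.23, -0.26, -0.15 and -0.30 after quantile normalization and 0.45, 0.40, 0.51 and 0.33 as deposited, so the sign depended on the scale and no change was called.

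The dimmest Flt1 probe set, at the 24.9 percentile, moved in the direction of the other vessel genes instead. It read 3.34 to 3.47 in controls (median 3.40), 3.54, 4.43 and 4.04 on day 5, and 4.71, 3.78 and 4.67 on day 7. Every array of these days lay above the controls, while day 2 arrays (3.53, 3.46 and 3.46) and day 14 arrays (3.79, 3.57 and 3.29) overlapped them. It rose by 0.60 ± 0.19 on day 5 (limma, adjusted p = 0.0281) and by 0.99 ± 0.19 on day 7 (adjusted p = 0.00131). The day 5 call was lost without replicate 2 of that day, where the adjusted p was 0.197, its highest with any 1 array left out. From day 7 to day 14 it fell by 0.93 ± 0.23 (adjusted p = 0.032). With 1 array left out the adjusted p reached 0.167, without day 7 replicate 1. The middle probe set, at the 27.5 percentile, read 3.38 to 3.61 in controls and 3.89, 4.00 and 3.76 on day 2. It read 3.75, 4.30 and 3.84 on day 5 and 4.49, 3.59 and 4.08 on day 7. Day 14 arrays read 3.72, 3.78 and 3.68. Its arrays of days 2, 5 and 14 lay above every control (10.7%, 14% and 9.71% of all genes), while 1 array of day 7 lay among the controls. It rose by 0.50 ± 0.15 on day 7 (adjusted p = 0.0217), which was lost without day 7 replicate 1 (adjusted p = 0.179). Its differences on days 2, 5 and 14 were 0.33, 0.41 and 0.17 (each ± 0.15) and were not called (limma, adjusted p = 0.138, 0.0562 and 0.512). Whether the probe sets read different transcripts of Flt1, which has membrane-bound and soluble forms, was not tested.

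**Figure D3:**
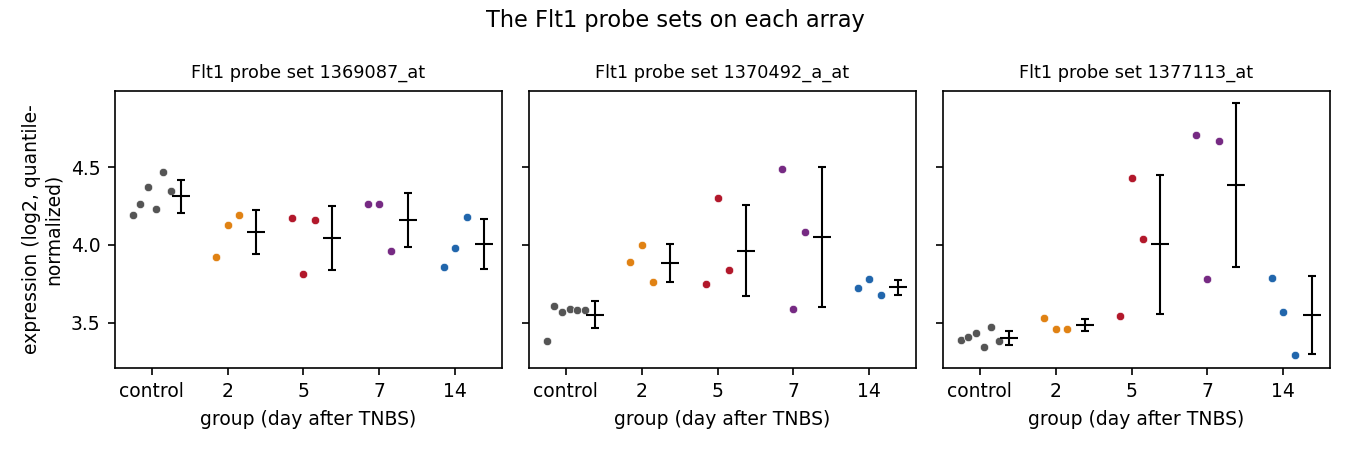
Quantile-normalized log2 values of the 3 Flt1 probe sets on each array (points in order of replicate number, mean and SD beside them; 6 control and 3 arrays for each TNBS day; 1 shared axis). From left to right the panels hold the brightest, the middle and the dimmest probe set. The dimmest reaches 4.71 on day 7 against at most 3.47 in controls, while the brightest reads at most 4.26 on day 7 against 4.19 to 4.47 in controls.

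Eng, or endoglin, a co-receptor for BMP and TGF-beta ligands on endothelium, rose on days 5 and 7. The controls read 5.20 to 5.96, median 5.51. Day 2 arrays were spread, at 5.59, 6.96 and 6.47, and day 5 arrays read 6.02, 7.93 and 7.04. Day 7 arrays read 7.68, 6.83 and 7.35, and day 14 arrays read 5.37, 5.45 and 5.54. On day 2 the arrays of replicates 2 and 3 were above every control and that of replicate 1 was among them. The difference was 0.81 ± 0.33 on day 2 (limma, adjusted p = 0.106), 1.46 ± 0.33 on day 5 (adjusted p = 0.00469) and 1.75 ± 0.33 on day 7 (adjusted p = 0.00119). Without day 2 replicate 1 the day 2 difference was 1.18 and passed (adjusted p = 0.0247).

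Plvap, which forms the diaphragms of fenestrated capillaries such as those of the gut mucosa, rose about equally on both days. It read 7.61 to 8.07 in controls (median 7.76) and 7.88, 7.97 and 7.92 on day 2. Day 5 arrays read 8.31, 9.36 and 9.14, day 7 arrays 8.97, 8.51 and 9.09, and day 14 arrays 7.70, 7.83 and 7.69. Days 2 and 14 lay within the range of the controls, and days 5 and 7 lay wholly above it. The difference was 1.14 ± 0.18 on day 5, a 2.21-fold higher level (limma, adjusted p = 0.000349), and 1.06 ± 0.18 on day 7 (adjusted p = 0.000492). Its SE was smaller than that of the other 6 genes that rose.

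Pecam1 (CD31), an adhesion protein of endothelial junctions that is also found on platelets and leukocytes, rose on both days. Controls read 5.14 to 5.65, median 5.39, and day 2 arrays read 5.89, 5.60 and 6.11. Day 5 arrays read 6.41, 7.86 and 7.24, day 7 arrays 7.94, 6.22 and 6.89, and day 14 arrays 6.20, 6.28 and 5.65. All arrays of days 5 and 7 lay above every control, 2 day 14 arrays did so too, and the third, at 5.65, lay at the level of the highest control. The difference was 1.76 ± 0.32 on day 5 (limma, adjusted p = 0.000917) and 1.60 ± 0.32 on day 7 (adjusted p = 0.00149), and 0.63 ± 0.32 on day 14 (adjusted p = 0.221).

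Vwf, the clotting glycoprotein stored in endothelial granules and in platelets, had the largest difference of the 9 genes on day 7 and the widest spread there. Controls read 4.67 to 5.60, median 5.36, and day 2 arrays read 5.73, 5.98 and 5.49. Day 5 arrays read 6.15, 7.55 and 7.44, day 7 arrays 8.27, 5.93 and 8.06, and day 14 arrays 6.25, 5.92 and 5.47. On day 7, 2 rats stood far above the third, whose 5.93 was still above every control. The difference was 1.83 ± 0.43 on day 5 (limma, adjusted p = 0.00546) and 2.20 ± 0.43 on day 7, a 4.60-fold higher level (adjusted p = 0.00137), and without day 7 replicate 2 it was 2.95.

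Between TNBS days, compared on the deposited values, the clearest difference was the fall from day 7 to day 14. Of the 9 genes 5 fell (Tie1, Kdr, Plvap, Eng and Angpt2), where 4.28% of all genes fell and 2.08% rose, with a median of -1.25 over the 9 and 0.06 over all genes. Kdr fell by 1.78 ± 0.32, from a mean of 7.39 to 5.61 (limma, adjusted p = 0.0056), and Angpt2 by 1.80 ± 0.36, from 6.21 to 4.40 (adjusted p = 0.00993). Eng fell by 1.77 ± 0.36 (adjusted p = 0.0114), Plvap by 1.00 ± 0.21 (adjusted p = 0.0119) and Tie1 by 1.25 ± 0.33 (adjusted p = 0.0397). The differences of Vwf (-1.45 ± 0.49), Tek (-0.96 ± 0.32) and Pecam1 (-0.90 ± 0.35) had adjusted p of 0.108, 0.101 and 0.171. The day 14 arrays lay wholly below those of day 7 for 6 genes, Tek with the 5 that fell, against 10.4% of all genes. No gene of the 9 had day 14 wholly above day 7, where 19.5% of all genes did. The count depended on single rats: it was 1 without day 7 replicate 1, 3 without day 7 replicate 3 or day 14 replicate 3, and 8 without day 7 replicate 2. The share of all genes that fell was 1.79%, 2.67%, 1.87% and 5.11% in these fits, in the same order. Kdr fell in all 6 fits with 1 array left out (limma, adjusted p at most 0.0392). The fall of Tie1 was lost in 5 of the 6, all but that without day 7 replicate 2 (adjusted p up to 0.206), and with only the 2 groups fitted (0.0919). The fall of Plvap was lost in 3 of the 6, without day 7 replicate 1 or 3 or day 14 replicate 3 (adjusted p up to 0.0647). Those of Eng and Angpt2 were lost in 1, without day 7 replicate 1 (0.0668 and 0.0599), and that of Angpt2 also with only the 2 groups fitted (0.0647).

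From day 5 to day 14 only Plvap fell among the 9, by 1.07 ± 0.21 (limma, adjusted p = 0.0256), where 1.01% of all genes fell and 0.338% rose. Day 14 lay wholly below day 5 for 6 of the 9 genes (Tie1, Kdr, Plvap, Pecam1, Eng and Angpt2), against 9.54% of all genes. The differences of the other genes ran from -1.47 (Eng, adjusted p = 0.0654) to -0.08 (Flt1), and 8 of the 9 had an unadjusted p under 0.05. Without day 5 replicate 1 the count was 7, and it was 0 without any other single array of these 2 days. The share of all genes that fell moved too: 2.57% without day 5 replicate 1, and 0.225% to 0.471% without each of the others. An F test among the 4 TNBS days called 5 of the 9 genes (Tie1, Kdr, Plvap, Eng and Angpt2), against 3.45% of all genes, and none when only the 12 TNBS arrays were fitted. Leaving out each TNBS array gave counts from 2 to 8 for this test, with 8 without day 7 replicate 2, 3 without day 2 replicate 3 or day 5 replicate 3, and 2 without day 7 replicate 1 or 3 or without any 1 array of day 14.

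Days 5 and 2 could not be separated by the test, although the readings differed. None of the 9 passed with limma, where 0.0141% of all genes rose and 0% fell, and 7 of the 9 had an unadjusted p under 0.05. The median difference from day 2 to day 5 was 1.00, with day 5 wholly above day 2 for Kdr, Plvap, Pecam1 and Vwf (5.06% of all genes). Without day 5 replicate 1, Plvap was called (1.27, limma adjusted p = 0.0148), where 0.176% of all genes rose. Days 7 and 5 did not separate either: none of the 9 was called, again where 0.0141% of all genes rose and 0% fell, none had an unadjusted p under 0.05 with limma, and the median difference was 0.10. No gene of the 9 had day 7 wholly above day 5, where 3.7% of all genes did.

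On each of days 5 and 7 the same 2 rats read highest for nearly all of the genes. On days 2 and 14 the order of the rats varied between genes. For 8 of the 9 genes, all but Flt1, the 4 highest of the 12 TNBS arrays were the same 4: day 5 replicates 2 and 3 and day 7 replicates 1 and 3. These 4 arrays, in any order, were the highest for 2.59% of all genes (368 of 14217), and also for the dimmest Flt1 probe set. The 4 arrays were picked from the values of these same genes, so the share is a description. The mean of the 9 genes above the control mean was 1.75 and 1.37 on the 2 high arrays of day 5 and 0.50 on the array of replicate 1. On day 7 it was 1.88 and 1.46 on the high arrays and 0.76 on that of replicate 2. It was 0.12, 0.45 and 0.24 on day 2 and 0.15, 0.17 and -0.05 on day 14, with the controls between -0.24 and 0.21. The measure was added after the values had been seen.

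Across the 12 TNBS arrays the genes other than Flt1 therefore ran together. As a description, Pearson's r of each gene with the mean of the other genes was 0.95 for Tie1 and Kdr, 0.94 for Plvap, 0.93 for Tek and Angpt2, 0.90 for Eng, 0.89 for Vwf and 0.87 for Pecam1. For Flt1 it was -0.01. The highest r between a pair was that of Tie1 with Tek (0.96), and the lowest between genes other than Flt1 was that of Pecam1 with Eng (0.72). These arrays share days and rats, so the values describe 1 set of 12 readings.

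Although Tie1 and Tek ran together among the TNBS arrays, their distance within an array differed from that in the controls. This and the next pairs were chosen after the values had been seen, so they are described with no test. The difference Tie1 minus Tek within an array, on deposited values, was -2.07 ± 0.23 (SD, n = 6) in controls. It was -0.96 ± 0.38, -0.71 ± 0.02, -0.82 ± 0.18 and -1.12 ± 0.16 (n = 3 each) on days 2, 5, 7 and 14. All TNBS arrays lay above all controls, with shifts of 0.95 to 1.36. The mean of Angpt2 minus Tek was 1.16 above that of the controls on day 7, with no overlap, and 0.64, 0.40 and 0.32 above it on days 2, 5 and 14, with overlap.

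For the VEGF receptors, Kdr minus Flt1 was 0.91 ± 0.44 in controls (n = 6), 2.70 ± 0.81 on day 5 and 3.03 ± 0.58 on day 7. The arrays of days 5 and 7 lay above all controls, with shifts of 1.79 and 2.12, and those of days 2 and 14 overlapped the controls (0.65 and 0.52). With the dimmest Flt1 probe set in place of the brightest, the shifts on days 5 and 7 were 1.06 and 1.07, again with no overlap, and that of day 14 was 0.22. Probe sets differ in how they respond to the same amount of RNA, and the part of that in these shifts was not tested. After quantile normalization the shift of Tie1 minus Tek was 0.98 to 1.33, and those of Kdr minus the brightest Flt1 probe set were 1.67 and 1.98 on days 5 and 7. With the dimmest Flt1 probe set they were 0.80 and 0.85, and the day 14 shift turned to -0.15.

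Most of 20 other measured genes of vascular endothelium rose on days 5 and 7; 1 of them, Mcam, also counts among the pericyte markers. On days 2, 5, 7 and 14, 2, 15, 17 and 1 of the 20 rose and none fell, and their median differences from control were 0.19, 1.01, 1.27 and 0.20, beside -0.01, -0.02, -0.06 and -0.02 over all genes. Among all genes 11.4%, 14.7%, 14.7% and 6.4% rose on these days. Erg, an ETS transcription factor of endothelium, rose on all 4 days, by 0.89, 1.60, 1.58 and 0.76 (each ± 0.22). It was the only gene of the 20 called on day 14, and no gene was called there without any 1 array of day 14 or without control replicate 1, 4, 5 or 6. The day 2 count was 0 without day 2 replicate 2. Ecscr, an endothelial surface protein, rose by 2.67 ± 0.45 on day 5 and 2.69 ± 0.45 on day 7. Ramp2, the partner of the adrenomedullin receptor, rose by 1.60 and 1.63 (± 0.27) and fell by 1.49 ± 0.31 from day 7 to day 14 (limma, adjusted p = 0.0131). From day 7 to day 14, 5 of the 20 fell (Ramp2, Rasip1, Ecscr, Cd93 and Sox18), where 4.28% of all genes fell. However, 0 of the 20 fell without day 7 replicate 1, day 14 replicate 2 or day 14 replicate 3, and 14 at most with another array left out. The share of all genes that fell ran from 1.79% to 5.11% in these fits. The day 5 and day 7 counts were lowest without day 5 replicate 2 (10) and without day 7 replicate 1 (11).

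Of 8 measured ligands, co-receptors and the receptor Flt4, none rose or fell on days 2, 5 and 14, and 2 rose on day 7, the ligand Pgf and the co-receptor Nrp1, where 14.7% of all genes rose, with list medians of -0.05 on day 5 and -0.02 on day 7. The day 7 count was 1 without any 1 array of day 7 or without control replicate 2, 3, 4 or 6. Nrp1 rose by 1.00 ± 0.21 on day 7 (limma, adjusted p = 0.0022) and fell by 1.22 ± 0.25 from day 7 to day 14, a call lost without day 7 replicate 1 or day 14 replicate 3. Flt4 (VEGFR3), the receptor of lymphatic endothelium, read -0.64, -0.74, -0.76 and -0.86 (± 0.11) on days 2, 5, 7 and 14 after quantile normalization, and was not called on both scales. In a list of 5 measured angiopoietins, angiopoietin-like proteins and Tek regulators, 1, 2, 3 and 0 rose on the 4 days, with medians of 0.27 on day 5 and 0.72 on day 7. Among all genes 11.4%, 14.7%, 14.7% and 6.4% rose on these days. The phosphatase Ptprb, which acts on Tek, rose by 0.74 and 0.77 (± 0.26) on days 5 and 7. The other 2 risen genes are angiopoietin-like and not known as ligands of Tek: Angptl4, a hypoxia-induced inhibitor of lipoprotein lipase, rose by 2.50, 2.74 and 3.72 (± 0.59) on days 2, 5 and 7. Angptl2 rose on day 7 by 0.72 ± 0.23. The day 7 count of this list was 1 without control replicate 2 or day 7 replicate 1. The day 5 count was 1 without day 5 replicate 2 or 3 or without any 1 control other than replicate 4, and the day 2 count was 0 without day 2 replicate 2.

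Of 12 measured genes of the endoglin and BMP pathway, 1, 2, 2 and 1 rose on the 4 days, with a median of -0.08 on both day 5 and day 7. These counts lie near the share of all genes that rose, 11.4%, 14.7%, 14.7% and 6.4%. Acvrl1 (ALK1), the endothelial receptor that works with endoglin, rose by 1.06 and 1.04 (± 0.23) on days 5 and 7 and fell by 0.99 ± 0.27 from day 7 to day 14 (limma, adjusted p = 0.0489), a call lost without day 7 replicate 1 or 3 or day 14 replicate 2 or 3. Smad1, which carries the signal, rose on each of the 4 days, by 0.36, 0.60, 0.38 and 0.68 (± 0.11). Smad5 read between -0.85 and -0.65 after quantile normalization, but was not called on both scales, and Id2, a target of this signal, fell on day 5, though not without day 5 replicate 3. The count of risen genes was 0 on day 2 without control replicate 2 or day 2 replicate 1 or 2, and 1 on day 7 without day 7 replicate 1 or 2. Of 9 Notch genes, 0, 1, 4 and 0 rose, beside the same shares of all genes, with medians of 0.21 on day 5 and 0.44 on day 7. Hey1, a Notch target in arteries, rose by 0.80 and 0.86 (± 0.21) on days 5 and 7, and the ligand Jag1 by 0.73 ± 0.19 on day 7, while the target Hes1, which the epithelium also uses, fell by 1.09 ± 0.21 on day 7. The day 7 Notch count was 1 without day 7 replicate 1 or 3, the day 5 count was 0 without day 5 replicate 2, and Hes1 was not called without any 1 array of day 7.

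Genes of sprouting vessels and of activated endothelium rose as well. Of 7 sprouting and tip cell genes, 2, 4, 6 and 0 rose on days 2, 5, 7 and 14, with medians of 0.94 on day 5 and 0.66 on day 7. For this and the next lists, the share of all genes that rose was 11.4%, 14.7%, 14.7% and 6.4%. Aplnr, the apelin receptor, rose by 2.39 and 2.43 (± 0.33) on days 5 and 7 and fell by 2.06 ± 0.37 from day 7 to day 14 (limma, adjusted p = 0.00518). Plaur, the urokinase receptor, which leukocytes also carry, rose by 1.45, 2.28 and 3.10 (± 0.31) on days 2, 5 and 7, and Adm, or adrenomedullin, by 0.67, 0.94 and 0.58 (± 0.19). Of 5 activation genes, 2, 3, 5 and 0 rose, with medians of 1.16 and 1.89 on days 5 and 7, and with Icam1, a leukocyte docking protein, at 1.10, 1.81 and 2.58 (± 0.36) and Selp, or P-selectin, at 1.89 ± 0.43 on day 7. Procr, the protein C receptor, rose by 0.97 and 1.19 (± 0.29) on days 5 and 7. Of 5 vessel-inhibiting proteins, 1, 3, 4 and 0 rose, with medians of 0.91 and 2.00. Col18a1, the source of endostatin, rose by 0.93, 2.00 and 2.64 (± 0.28) on days 2, 5 and 7, and Thbs2 and Serpinf1 rose by 2.00 ± 0.27 and 2.04 ± 0.30 on day 7. Without day 5 replicate 2, the day 5 counts of the activation and inhibitor lists were 1 each. Their day 2 counts reached 0 without day 2 replicate 2 or 3 or without some single controls, and the day 2 count of sprouting genes was 1 without day 2 replicate 2 or 3.

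Markers of other cells of the wall moved in the same comparisons. Of 7 leukocyte markers 4, 5, 6 and 1 rose on days 2, 5, 7 and 14. Of 5 fibroblast markers 0, 3, 4 and 0 rose, of 3 mesothelial markers 0, 3, 3 and 0, and of 7 markers of pericytes and vessel muscle 1, 3, 3 and 0. Of 6 platelet markers 2, 1, 2 and 0 rose, of 6 lymphatic markers 3, 1, 1 and 0, and of 4 markers of enteric neurons and glia none. Among all genes 11.4%, 14.7%, 14.7% and 6.4% rose on these days. Counts of 1 risen marker are therefore not read as a result about a cell type. The leukocyte count on day 2 was 1 without day 2 replicate 3, and the pericyte count on day 5 was 1 without day 5 replicate 2 or 3. Of 8 epithelial markers 1 rose on day 5 and 1 fell on day 7, and of 6 smooth muscle markers 1, 2, 1 and 1 fell. Among all genes 0.724%, 1.43%, 1.53% and 0.176% fell on days 2, 5, 7 and 14. The smooth muscle falls were of 1 gene on all 4 days, joined by another on day 5. The summed level of the leukocyte markers was 8.52 to 10.34 in controls (log2), 9.14 to 12.09 on day 2, 10.42 to 11.62 on day 5, 11.18 to 11.53 on day 7 and 9.40 to 11.14 on day 14. For pericytes and vessel muscle it was 8.83 to 9.71 in controls, 9.44 to 10.51, 9.33 to 10.33, 9.72 to 10.85 and 9.24 to 9.46 on the 4 days. The summed fibroblast markers ran from 12.09 to 12.61 in controls, 11.89 to 12.75 on day 2, 12.74 to 13.58 on day 5, 13.48 to 13.76 on day 7 and 11.68 to 12.83 on day 14. Those of platelets and megakaryocytes, which share Pecam1 and Vwf with endothelium, ran from 7.48 to 8.0, 8.12 to 9.44, 7.72 to 9.25, 8.72 to 9.06 and 7.37 to 7.78 in the same order. Their part in the rise of the vessel genes was not tested.

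**Figure D4:**
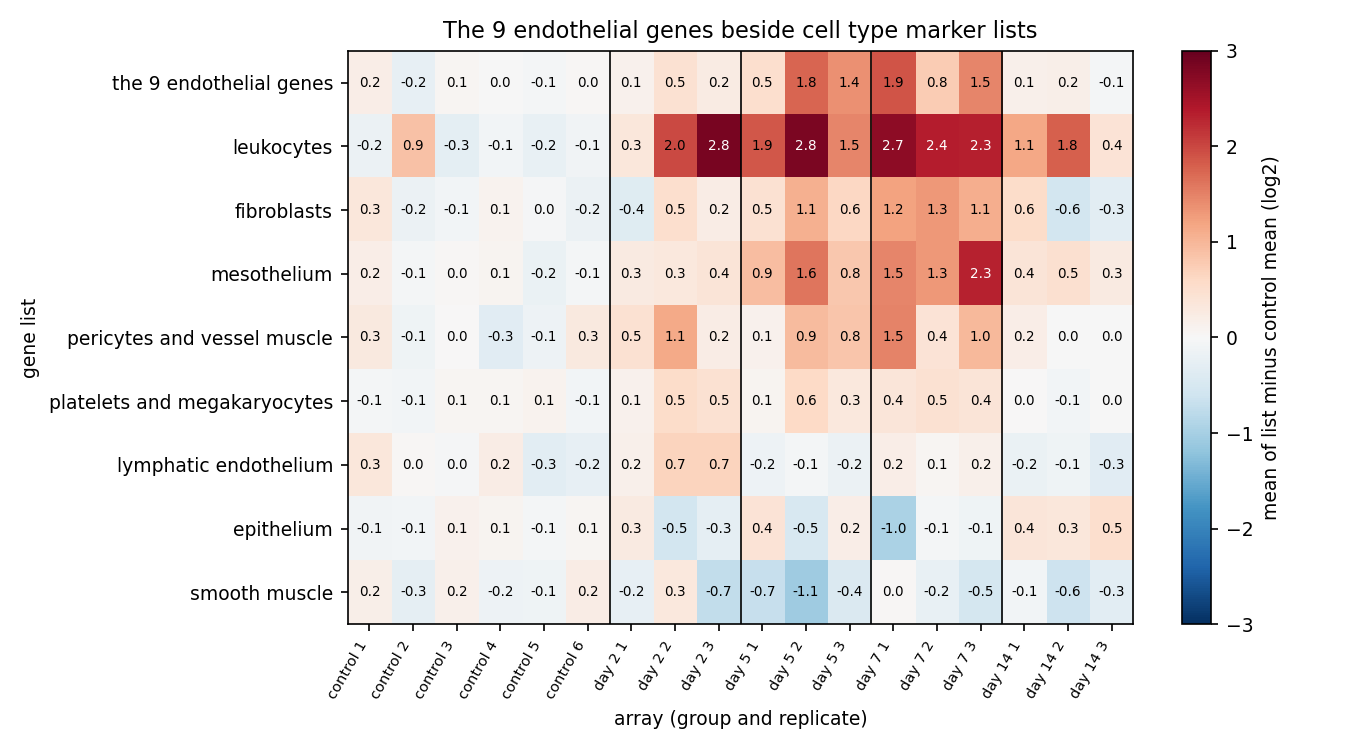
Mean of the 9 genes and of 8 of the 9 cell type marker lists (that of enteric neurons and glia is not drawn) on each of the 18 arrays, as log2 difference from the mean of the 6 controls after quantile normalization (columns are arrays by group and replicate, vertical lines separate the groups). Leukocyte markers are already 2.84 above control on day 2 replicate 3, where the 9 genes are 0.24 above it.

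On some arrays marker lists stood well above control where the vessel genes were less raised than on their 4 highest arrays. On day 2 the mean of the leukocyte markers was 1.98 and 2.84 above control on replicates 2 and 3, where the 9 genes were 0.45 and 0.24 above it. On day 7 replicate 2, where the 9 genes were lower than on the other arrays of that day, the leukocyte mean was 2.35 and the fibroblast mean 1.31, close to the 2.68 and 1.21 of replicate 1. The mean of pericyte and vessel muscle markers was 0.13 on day 5 replicate 1 and 0.42 on day 7 replicate 2, and 0.84 to 1.49 on the 4 arrays where the vessel genes were highest, but it was also 1.13 on day 2 replicate 2.

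The genes most like the 9 over the 12 TNBS arrays, by Pearson's r with the mean of their scaled values among 7105 genes, were Plxnd1 (0.985), Gja4 (0.979), Hlx (0.978), Hspg2 (0.978), Ramp2 (0.975), Podxl (0.970), Slc16a3 (0.969) and Arrdc2 (0.968). Plxnd1 is a semaphorin receptor of vessels, Gja4 is connexin 37 of arterial endothelium, Hspg2 is perlecan of basement membranes, Podxl coats the vessel lumen, and Slc16a3 exports lactate. No role in vessels is given here for Hlx and Arrdc2, and of the 8 only Ramp2 is in the gene lists used above. Against control all 8 genes rose on days 5 and 7, where 14.7% of all genes rose on each day, with Gja4 at 2.29 and 2.74 and Plxnd1 at 1.04 and 1.17. From day 7 to day 14 all 8 fell, where 4.28% of all genes fell, Gja4 by 1.97 and Slc16a3 by 2.00. The 8 were picked for their likeness over the TNBS arrays, which favours genes high on days 5 and 7. These rises and falls are therefore a description.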

How the data were processed

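The authors deposited 1 table of log2-like values for 31099 probe sets on 18 Affymetrix rat expression arrays of colon RNA. The series' design text states that the authors normalized them in Bioconductor (affyPLM). It gives neither the version nor the background method nor the log base, and the values were used as log2 from their range. No raw array files were used, and the number of arrays limits the precision. Tests did not include the 57 control probe sets. Probe sets were named through the platform annotation, and 20826 carry 1 symbol.

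limma 3.58.1 in R 4.3.3 fitted 1 coefficient per group to all 18 arrays (control 6, each TNBS day 3), with two-sided tests. Quantile normalization covered all probe sets. Calls need an adjusted p under 0.05, against control on both scales. p-values measure the spread between these rats. The 10 genes, the gene lists and the rules for calls were chosen with earlier results of these data known. Beside the 10 genes, the text names up to 3 genes of each pathway list, those with the smallest adjusted p of an F test of the 4 differences from control, and the 8 genes most like the members. Genes named in counts alone (Pgf, Id2, Rasip1, Cd93, Sox18, Epcam) were added after their values were seen, as were the differences within arrays. The procedure was tested on simulated data. Alternatives were other scales, a filter on low probe sets, other priors, samples, weights, thresholds and probe sets, a replicate block, and leaving out each array.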

Additional observations from a re-analysis of the deposited data

Results flagged for a closer look

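In 1 of 12 control groups tested, 1 for each probe set of the vessel genes, an array stood apart from the other 5. The middle of the 3 Flt1 probe sets by mean level read 3.38 on control replicate 1, against 3.57 to 3.61 on the other controls (log2, quantile-normalized). The gap was 0.81 of the range of the group, above the critical value of 0.625 for 6 arrays; chance marks about 1 group in 20, and no cause was tested.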

How the results depend on the processing

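The day 7 count stayed at 7 when any 1 array was left out; it was 9 on deposited values alone and 6 without the lowest 50% of probe sets, where 7 of the 9 genes were tested. The day 5 count was 6 to 8 when any 1 array was left out, and stayed within 1.5 times of 7 under the alternatives that kept all arrays. Against control, the deposited values alone would call 8 genes on day 2 and 7 on day 14, median centring 2 and 1, and a fit of only the 2 groups compared 2 and 1. The calls with median centring were Eng higher (0.84) and Flt1 lower (-0.32) on day 2, and Flt1 lower (-0.42) on day 14. For day 14 minus day 7 the count was 3 with only the 2 groups and 2 at an adjusted p under 0.01. For day 14 minus day 5 it was 2 with cyclic loess, 4 without the lowest 50% of probe sets, 2 with a trend and robust prior, 0 with only the 2 groups, 4 with array weights and 0 at an adjusted p under 0.01. For the F test it was 0 with only the 12 TNBS arrays and 1 at an adjusted p under 0.01.
Replicate numbers did not pair the rats (deviations of same-numbered arrays correlated from -0.31 to 0.47), and with the replicate block the counts were 0 for day 14 minus day 5 and 0 for the F test.
Without 1 array at a time the counts ran from 0 to 1 (day 2), 0 to 0 (day 14), 0 to 1 (day 5 minus day 2), 1 to 8 (day 14 minus day 7), 0 to 7 (day 14 minus day 5) and 2 to 8 (F test).
Of the differences that turned sign, none was called in the report. With deposited values alone, against control: Tek 0.31 and Flt1 0.45 for day 2, Flt1 0.40 for day 5 and 0.51 for day 7, and for day 14 Tek 0.32, Kdr 0.84, Flt1 0.33, Plvap 0.65 and Eng 0.79. With median centring: Plvap -0.04 on day 2, and on day 14 Kdr 0.10, Eng 0.04 and Angpt2 -0.11. With cyclic loess: Plvap 0.01 and Angpt2 -0.08 on day 14, Tek 0.00 for day 7 minus day 5. With array weights, for day 7 minus day 5: Tie1 0.05, Tek 0.22, Flt1 -0.04, Plvap 0.13 and Pecam1 0.08. With the replicate block: Angpt2 -0.03 on day 14.
Without 1 array, day 14 minus control ran from -0.11 to 0.09 (Kdr), -0.04 to 0.10 (Angpt2), -0.10 to 0.00 (Plvap) and -0.15 to 0.01 (Eng); day 7 minus day 5 from -0.52 to 0.15 (Tie1), -0.42 to 0.26 (Tek), -0.35 to 0.13 (Plvap), -0.57 to 0.29 (Pecam1), -0.16 to 0.70 (Eng) and -0.04 to 1.12 (Vwf); Flt1 from -0.16 to 0.04 (day 5 minus day 2) and -0.18 to 0.02 (day 14 minus day 5). The cause was not tested.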
